A study of Mus musculus with 24 samples.

Results

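A set of 10 genes was followed in mouse pancreatic stellate cells (PSC), namely 8 antioxidant genes that are textbook targets of the transcription factor NRF2 (Nqo1, Hmox1, Gclc, Gclm, Txnrd1, Srxn1, Prdx1 and Gsr) and the metallothionein genes Mt1 and Mt2. The genes are listed by name, by a rule that sets no threshold on their values, and are 10 of the 53801 genes listed. RNA of PSC was sequenced in 8 groups of 3 libraries, 24 in all. The PSC were primary cells of wild-type (WT) C57BL/6J mice, isolated from pooled pancreata and grown in culture before use, and they lay on a membrane insert with 1 µm pores in every group. In standard co-culture, the distant arrangement, cells of the pancreatic cancer line KPC grew on the bottom of the well below the insert. In inverse co-culture, the close arrangement, KPC cells grew on the underside of the same membrane and had been seeded before the PSC, so that the cells of both kinds already shared the insert before the clock was started. Contact of PSC with KPC cells was prevented in both models, and each model had its own mono-cultured control PSC at 24 h and at 72 h. The KPC line came from 1 female mouse of a genetic model of pancreatic cancer in which a Cre driven by the p48 promoter is active in the pancreas.

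NRF2, encoded by Nfe2l2, is held in the cytoplasm by KEAP1 and degraded. When electrophiles or oxidants modify KEAP1, NRF2 reaches the nucleus, pairs with a small MAF protein and binds antioxidant response elements (ARE), from which BACH1 can displace it. Its targets make glutathione, reduce thioredoxin and quinones and degrade haem. Metallothioneins are small cysteine-rich proteins that bind zinc and copper, and their genes respond to metals through the factor MTF1 and metal response elements (MRE), and to glucocorticoids and inflammatory signals. Stellate cells store retinoids in the healthy pancreas and turn into matrix-producing cells when activated.

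Levels are FPKM, fragments scaled to transcript length and to the mapped fragments of the library, and thus allow for gene length. The libraries held between 15932730 and 24798759 recovered gene fragments (median 18860267), and no library pair was identical. A difference is log2 of co-culture over control on FPKM + 0.5, and passed the test at an adjusted p under 0.05 (limma, Benjamini-Hochberg over all genes tested, two-sided). The libraries of a group were biological replicates according to the study's methods. The summed FPKM of 10 stellate cell and fibroblast markers was between 11302 and 19839, with Col1a1, Col1a2, Acta2 and Vim high in every library and Gfap between 0 and 0.237. The cells therefore carried the expected markers except Gfap. RNA input was 450 ng for the standard and 120 ng for the inverse model, so that model and RNA input cannot be told apart. In bulk RNA, fewer cells of a type and less RNA per cell cannot be told apart either.

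To show which regulatory letters the members hold, the promoters of RefSeq (GRCm38.p6, 250 bases before to 50 after a start site) were searched on both strands for the ARE core TGACNNNGC and for the MRE cores TGCACNC and TGCGCNC. Of the 10 members, 7 had a promoter in that table, in 9 windows. The ARE core was found in 5 of these 9 windows, 1 window for each of 5 members, against 12.4% of all 32851 promoter windows. The stretches below are those around the ARE cores of Gclm, Txnrd1, Prdx1 and Mt2, each read along the strand of its gene, with the ARE core in capitals. The core is read on the opposite strand in Gclm, Txnrd1 and Prdx1, and on the strand of the gene in Mt2.
Gclm, chr3:122245413-122245441, plus strand, core at position -134 from the start site: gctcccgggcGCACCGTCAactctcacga
Txnrd1, chr10:82859104-82859132, plus strand, core at position -92, in 1 of its 3 windows: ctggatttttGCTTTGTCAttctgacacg
Prdx1, chr4:116685456-116685484, plus strand, core at position -133: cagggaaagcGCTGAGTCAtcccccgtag
Mt2, chr8:94172529-94172557, plus strand, core at position -79: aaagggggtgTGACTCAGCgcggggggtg
Srxn1 held its ARE core at position 28. MRE cores were present in Mt1 and Mt2, in Gclm at 3 positions, the one at -138 overlapping its ARE core, and in Srxn1 at position -19. At least 1 MRE core was held by 25.7% of all promoters. Mt1 had 3 of them, at positions -23, 2 and 20, and Mt2 had 4, against 7.11% of promoters with 2 or more and 0.517% with 4 or more. The stretch with the MRE cores of Mt1 (capitals) lies at chr8:94179049-94179118 on the plus strand and is printed because Mt1 was the member with the largest rise in co-culture.
Mt1: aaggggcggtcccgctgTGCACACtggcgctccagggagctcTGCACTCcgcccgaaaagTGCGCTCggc
These matches describe letters and not bound sites, as no binding was measured.

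Mt1 and Mt2 lie next to each other on chromosome 8, Mt2 at chr8:94172664-94173568 and Mt1 at chr8:94179082-94180327 (GRCm38, GENCODE M21, plus strand). Their coding sequences of 186 bases each are 79.6% identical and differ at 38 bases, and the longest identical run is 20 bases, so that fragments of the genes can be told apart. They are printed to show this, with the differing bases in capitals.
Mt1: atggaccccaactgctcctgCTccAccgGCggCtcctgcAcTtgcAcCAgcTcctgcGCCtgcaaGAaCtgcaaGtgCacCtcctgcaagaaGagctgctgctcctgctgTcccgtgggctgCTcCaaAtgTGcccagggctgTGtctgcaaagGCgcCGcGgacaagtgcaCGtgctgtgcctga
Mt2: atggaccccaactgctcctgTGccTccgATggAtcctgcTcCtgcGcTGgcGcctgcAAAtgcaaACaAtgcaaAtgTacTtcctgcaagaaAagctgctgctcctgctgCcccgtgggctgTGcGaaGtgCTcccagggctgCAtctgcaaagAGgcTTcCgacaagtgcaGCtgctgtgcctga

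Among the members, Prdx1, a peroxiredoxin that reduces hydrogen peroxide, was the highest, between 217 and 523 FPKM (median 355), followed by Hmox1, which opens the haem ring, between 119 and 307 FPKM (median 199). Txnrd1, which reduces thioredoxin with NADPH, ranged from 61.0 to 244 FPKM. Srxn1, which repairs over-oxidised peroxiredoxins, ranged from 54.7 to 133 FPKM. These 4 genes and the glutathione genes were far above the filter in all 24 libraries. Gclm and Gclc, the modifier and the catalytic subunit of the enzyme that starts glutathione synthesis, had medians of 75.9 and 22.3 FPKM. Gsr, which reduces oxidised glutathione, ranged from 9.48 to 23.6 FPKM and Mt1 from 20.8 to 172 FPKM. Nqo1, a quinone reductase, was the lowest of the NRF2 targets, with a median of 4.52 FPKM, and Mt2 was at 0 in 15 libraries. The spread was widest for Nqo1, whose highest library was 9.81 times its lowest, and for Mt1 with 8.29 times. Of the 10 members, 9 passed the filter of FPKM above 1 in at least 3 libraries in every comparison, and Mt2 in none.

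**Figure D1:**
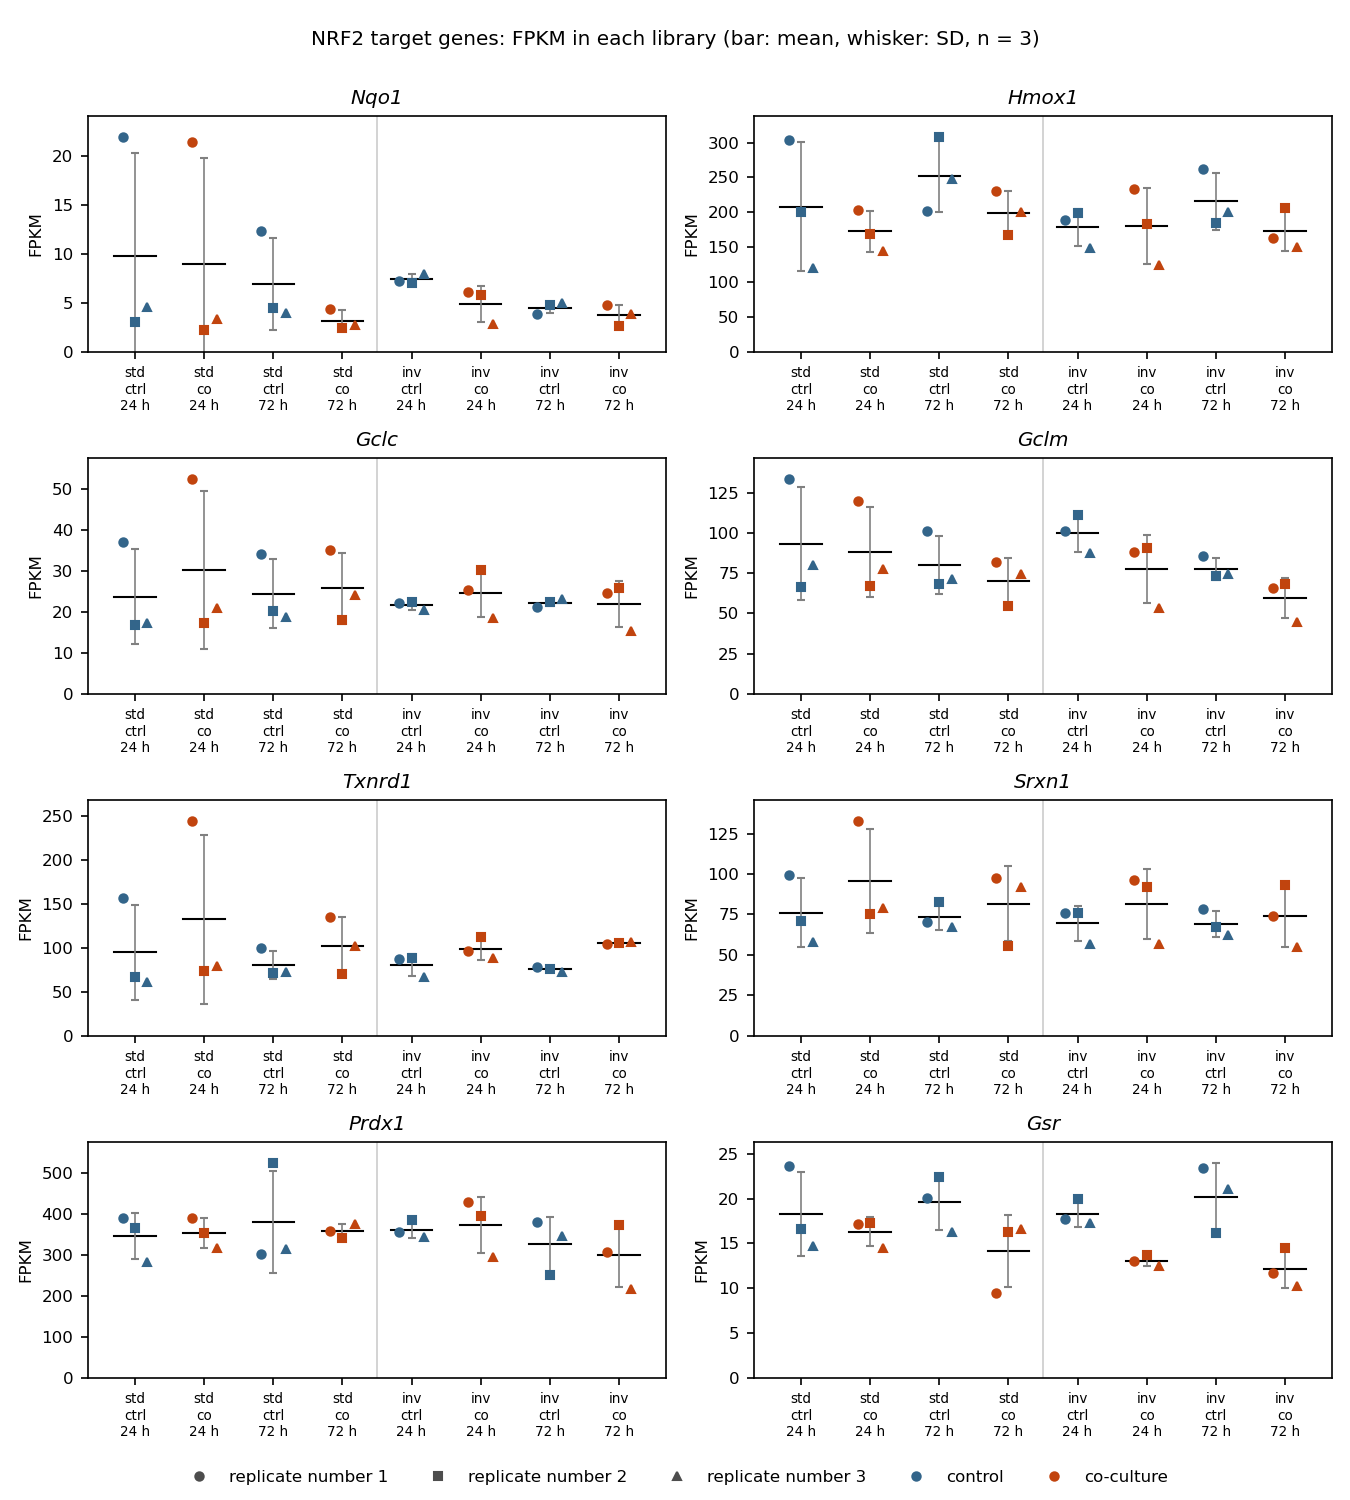
FPKM (linear axis from 0) of the 8 NRF2 target genes in each of the 24 libraries, by group, with the group mean as a bar and the SD as a whisker (n = 3). In each of the 4 standard groups library number 1 is the highest for Nqo1, Gclc, Gclm and Txnrd1, by a margin that differs between genes and groups.

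Mt1 was the member that rose in inverse co-culture at 24 h. The 3 mono-cultured controls were at 36.2, 28.9 and 25.7 FPKM, and the 3 co-cultures at 70.4, 55.8 and 49.4 FPKM. Every co-culture library was above every control. The means were 58.5 ± 10.7 FPKM (SD, n = 3) and 30.3 ± 5.39 FPKM (SD, n = 3), a ratio of 1.93, and the log2 difference of 0.94 (SE 0.17) passed the test (limma, adjusted p = 0.0266). Of the 9 members tested 1 was called, and of all 12827 genes 2.47% were called, 1.08% as higher and 1.39% as lower. The call was lost without co-culture number 2 (limma, adjusted p = 0.0891), without control number 2 (0.112) and without control number 3 (0.123), with log2 differences between 0.80 and 1.07 whichever library was left out. The summed FPKM of 10 epithelial and cancer cell markers was 3.46, 45.9 and 8.51 in the 3 co-cultures and 1.27, 2.03 and 2.02 in the controls, and that of 4 mesothelial markers 30.5 to 33.8 and 20.2 to 24.3, so that both sums were higher in the whole group in which Mt1 was higher. Their part in the result was not tested. Co-culture number 2 stood out with an epithelial sum of 45.9 against 11.1 or less in all other libraries, with Krt8, Krt18 and Krt19 the largest parts and Epcam at most 0.123. Without this library the log2 difference of Mt1 was 0.96.

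At 72 h Mt1 was at 52.6, 38.6 and 34.7 FPKM in the inverse controls and at 77.9, 81.8 and 30.3 FPKM in co-culture. The groups overlapped, as co-culture number 3 was below every control. The log2 difference of 0.48 (SE 0.37) did not pass (limma, adjusted p = 0.403). Without co-culture number 3 it was 0.94 and passed (limma, adjusted p = 0.0168), and without any other 1 library it was between 0.23 and 0.65 and did not. In the standard model, Mt1 at 24 h was at 20.8, 57.5 and 26.3 FPKM in controls and at 25.8, 75.6 and 30.9 FPKM in co-culture of the same numbers 1, 2 and 3. At 72 h it was at 27.5, 99.8 and 61.9 FPKM in controls and at 67.8, 172 and 83.0 FPKM in co-culture. Co-culture was higher in 3 of 3 numbered pairs at both times, and the groups overlapped. The log2 differences of 0.31 (SE 0.53) and 0.83 (SE 0.54) did not pass (limma, adjusted p = 1 and 0.807). Leaving out 1 library moved them between -0.16 and 0.73 at 24 h and between 0.33 and 1.25 at 72 h. Blocked by replicate number, the SE at 24 h fell to 0.082, and Mt1 still did not pass (limma, adjusted p = 0.152 at 24 h and 0.324 at 72 h). The difference between the models was 0.63 (SE 0.70) at 24 h and -0.35 (SE 0.70) at 72 h, and did not pass (limma, adjusted p = 1 and 0.997).

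Mt2 could not be read in these data. It had 0 to 11 fragments in a library and 49 in the 24 libraries together, against 19642 for Mt1. Single libraries reached 7 fragments in inverse co-culture at 24 h (numbers 1 and 3), 11 in the inverse control at 72 h (number 3) and 9 in standard co-culture at 72 h (number 2), and the remaining libraries had 4 or fewer. Of the 588 exon bases of Mt2, 432 (73.5%) are overlapped by the antisense gene Gm45774 at chr8:94170748-94173412 on the minus strand. The counting left out fragments that touch 2 genes and, at its default, does not use strand. Outside the overlap are the last 156 exon bases of Mt2, chr8:94173413-94173568. Gm45774 itself had at most 13 fragments, and 69 in all. The low values of Mt2 are therefore no measure of its RNA level, and its part in any comparison is not given.

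**Figure D2:**
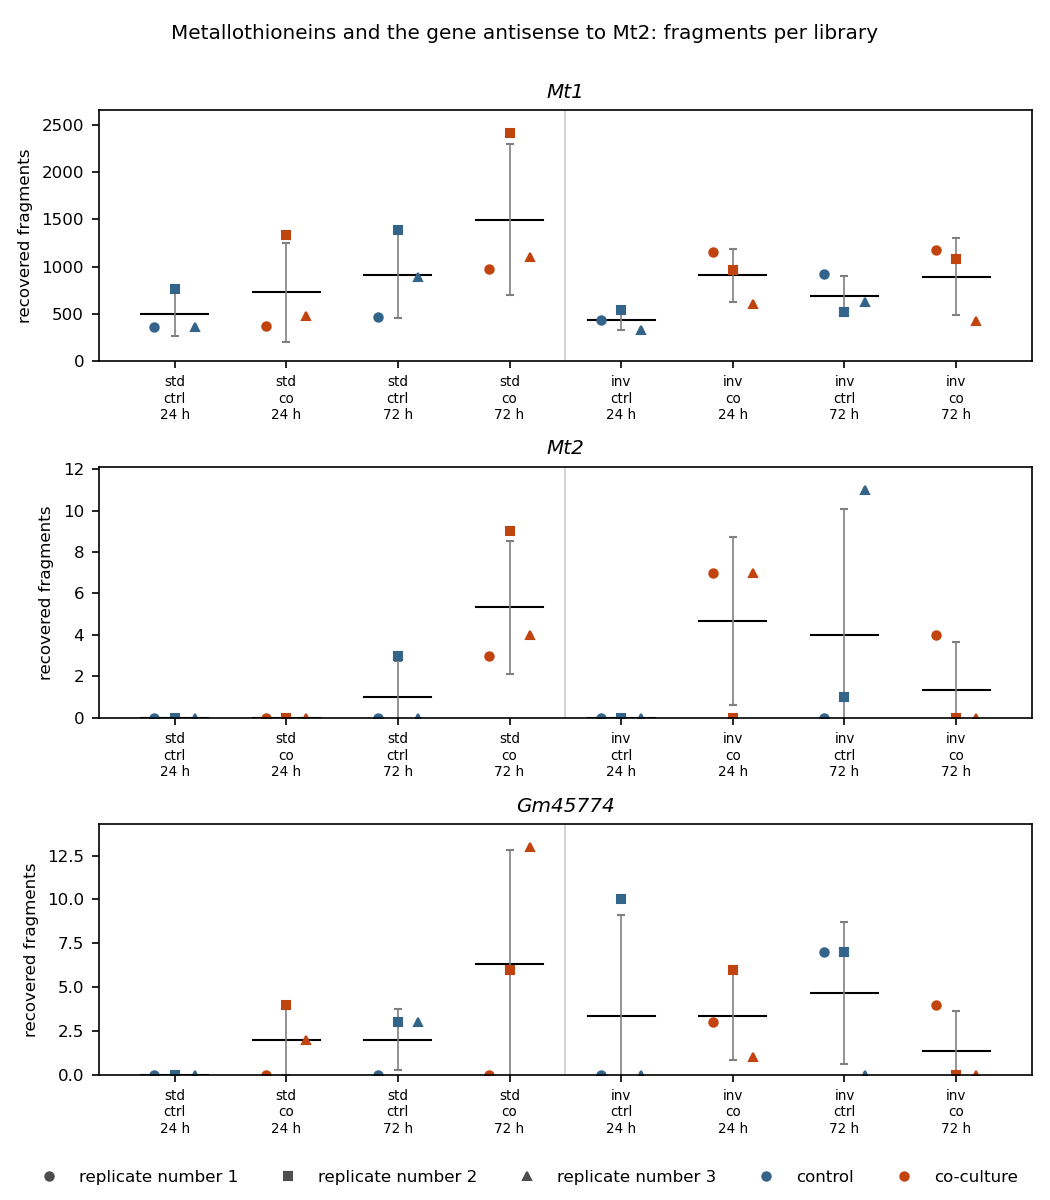
Recovered fragments (axis from 0) of Mt1, Mt2 and the antisense gene Gm45774 in each of the 24 libraries, by group. Mt1 has 329 to 2420 fragments, Mt2 at most 11 and Gm45774 at most 13.

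Txnrd1 and Gsr, which both pass electrons from NADPH, to thioredoxin and to glutathione respectively, moved in opposite directions in inverse co-culture at 72 h. Txnrd1 was at 78.4, 75.9 and 72.1 FPKM in controls and at 105, 106 and 106 FPKM in co-culture. The co-cultures lay close together and above every control. The means were 106 ± 0.724 FPKM and 75.5 ± 3.14 FPKM (SD, n = 3 each), a ratio of 1.40, and the log2 difference was 0.48 (SE 0.085; limma, adjusted p = 0.0142). Gsr was at 23.4, 16.1 and 21.1 FPKM in controls and at 11.7, 14.5 and 10.2 FPKM in co-culture, again without overlap. The means were 20.2 ± 3.72 FPKM and 12.1 ± 2.16 FPKM (SD, n = 3 each), and Gsr fell by 0.71 on the log2 scale (SE 0.18; limma, adjusted p = 0.0427), to 0.601 of control. Of the 9 members 2 were called, against 12.8% of 13066 genes, 3.27% as higher and 9.57% as lower.

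The call of Txnrd1 was lost without co-culture number 1 (limma, adjusted p = 0.0604), control number 1 (0.0513) or control number 3 (0.0722), with log2 differences between 0.45 and 0.51. That of Gsr was lost without co-culture number 1 or 3 (0.128 and 0.0713) or control number 1 or 3 (0.141 and 0.144), with log2 differences from -0.86 to -0.60. The median of all genes was at -0.16 in this comparison. On median-ratio scaling, which takes such a shift out, the difference of Txnrd1 was 0.64 (limma, adjusted p = 0.00749) and that of Gsr -0.55 (0.0820), so that the call of Gsr was lost and its direction was not. The summed FPKM of 5 adipocyte markers was 394 to 829 in these controls and 22.7 to 94.0 in co-culture, and that of 10 macrophage markers 122 to 235 and 52.2 to 80.6. The stellate cell sum was 11302 to 14723 in controls and 15755 to 17808 in co-culture, and the sum of 7 acinar markers, of which only Cela1 passed 1 FPKM in any library, 15.6 to 18.1 and 10.7 to 11.1. All 10 macrophage markers were above 0 in every library. Of the adipocyte markers, only Lep was at 0 in any library. The part of these markers in the results at 72 h was not tested.

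**Figure D3:**
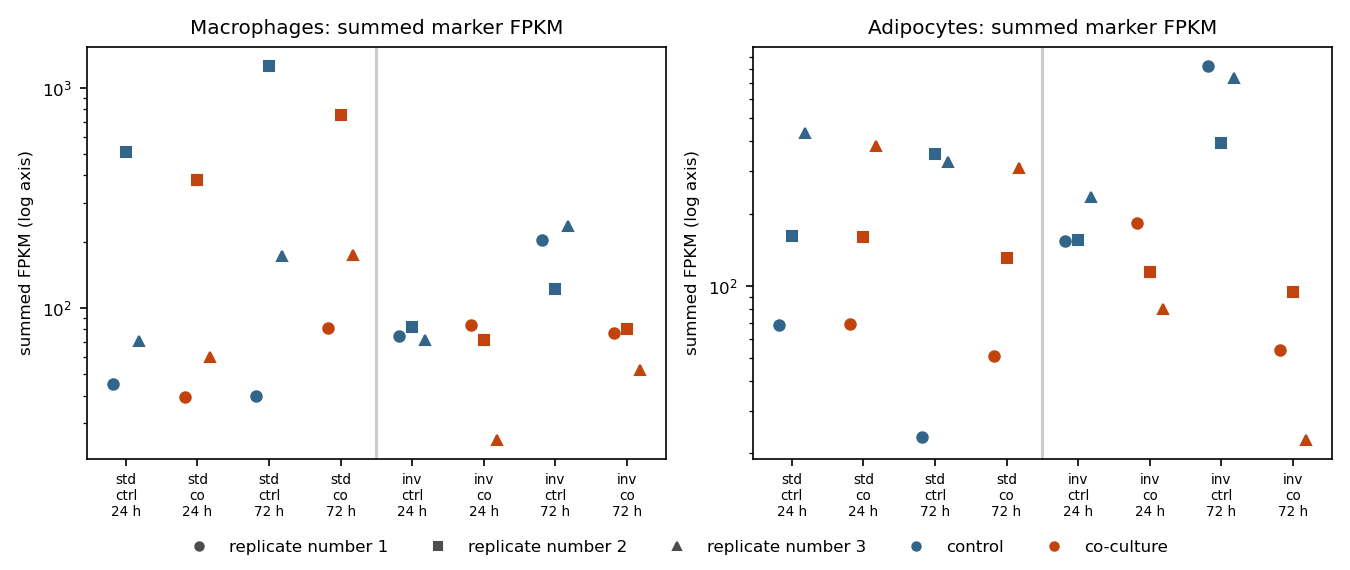
Summed FPKM (log axis) of 10 macrophage and 5 adipocyte markers in each library, by group. The adipocyte sum in the inverse controls at 72 h (394 to 829) lies above that in inverse co-culture at 72 h (22.7 to 94.0), and the macrophage sum in the standard model is highest in library number 2 of each group.

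At 24 h in the inverse model, Gsr was at 17.7, 19.97 and 17.2 FPKM in controls and at 13.01, 13.7 and 12.5 FPKM in co-culture. The groups did not overlap, and the log2 difference of -0.47 (SE 0.12) missed the threshold (limma, adjusted p = 0.0942). Txnrd1 was at 87.7, 88.5 and 66.2 FPKM in controls and at 96.7, 113 and 88.0 FPKM in co-culture, with overlap, and its difference was 0.30 (SE 0.14; limma, adjusted p = 0.391). Groups that do not overlap were found for 3 members at 24 h (Mt1, Gsr and Nqo1) and for 3 at 72 h (Txnrd1, Gsr and Gclm), against 21.2% and 38.3% of all genes tested.

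Neither gene passed in the standard model. Gsr was at 23.6, 16.6 and 14.7 FPKM in controls and at 17.2, 17.3 and 14.5 FPKM in co-culture at 24 h. At 72 h Gsr was at 20.04, 22.4 and 16.3 FPKM in controls and at 9.48, 16.3 and 16.7 FPKM in co-culture. The lowest of all 24 values of Gsr, 9.48 FPKM, was thus in a standard co-culture, and the groups overlapped at both times. Txnrd1 was at 157, 66.3 and 61.0 FPKM in controls and at 244, 73.8 and 79.3 FPKM in co-culture at 24 h, higher in 3 of 3 pairs, and at 99.3, 71.4 and 72.1 against 135, 69.9 and 102 FPKM at 72 h, higher in 2 of 3. The log2 differences at 24 h and 72 h were -0.14 (SE 0.20) and -0.49 (SE 0.25) for Gsr and 0.39 (SE 0.57) and 0.31 (SE 0.26) for Txnrd1 (limma, adjusted p between 0.797 and 1). Leaving out 1 library, which leaves its number in only 1 of the 2 groups, moved Txnrd1 between -0.17 and 0.82 at 24 h and between 0.08 and 0.55 at 72 h. Gsr moved between -0.28 and 0.06 at 24 h and between -0.62 and -0.23 at 72 h. A replicate block, which pairs the libraries, gave smaller SEs, of 0.10 and 0.15 for Txnrd1 and 0.13 and 0.22 for Gsr. Neither gene passed with it (limma, adjusted p between 0.148 and 0.683).

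No member was called in standard co-culture at either time, where 0 of 12859 and 0 of 12863 genes passed (limma, 0% of genes tested), nor with voom on recovered fragments (0 genes at both times). The paper, which tested with DESeq2, does report differentially expressed genes in standard co-culture at both times. At an unadjusted p under 0.05, 371 and 800 genes passed, none of them a member. A block for replicate number, which pairs the libraries in this model, let 157 genes pass at 24 h and 1 at 72 h, and again 0 members. Without the libraries of number 1, chosen after the values were seen, 0 genes and 0 members passed at either time. None of the members passed the test of the difference between the models at 24 h or 72 h (limma, 0 of 14452 genes, voom 0, unadjusted 182 and 501 genes, 0 members), and none passed the test of the difference between the times in the standard model (limma, 0 of 13694 genes, voom 0, unadjusted 141) or the inverse model (limma, 0 of 13722 genes, voom 13, unadjusted 1471). Calls in inverse co-culture are thus not shown to differ from the standard model or between times. The differences between models had an SE between 0.29 and 0.92 for the 9 members.

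**Figure D4:**
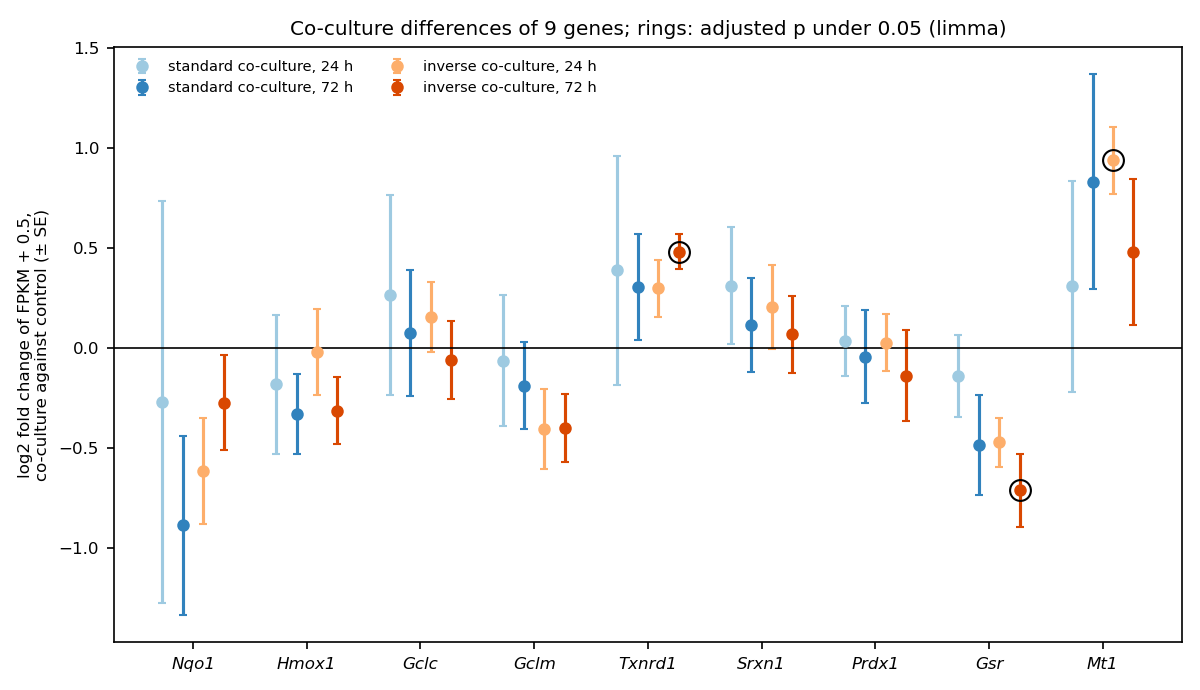
Log2 difference of co-culture over control on FPKM + 0.5 (points) with its SE (lines) for 9 members in the 2 models at 24 h and 72 h. Rings mark an adjusted p under 0.05 (limma), which Mt1 had in inverse co-culture at 24 h, and Txnrd1 and Gsr at 72 h.

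The rate-limiting glutathione genes did not pass in any co-culture comparison. Gclm, the modifier subunit, was at 101, 111 and 87.6 FPKM in inverse controls and at 88.3, 90.6 and 53.0 FPKM in co-culture at 24 h. At 72 h it was at 85.3, 72.9 and 74.2 FPKM in controls and at 65.6, 68.0 and 44.9 FPKM in co-culture. The co-cultures were lower without overlap at 72 h only, and the log2 difference was -0.40 at both times (SE 0.20 and 0.17; limma, adjusted p = 0.405 and 0.147). On leaving out 1 library it was between -0.54 and -0.16 at 24 h and between -0.51 and -0.21 at 72 h. Median-ratio scaling gave -0.34 and -0.24. Gclc, the catalytic subunit, was between 15.4 and 30.3 FPKM in all inverse libraries, with differences of 0.15 (SE 0.17) at 24 h and -0.06 (SE 0.19) at 72 h. Of the exon bases of Gclm, 4.71% are shared with Gm17494 or Gm6061, and 1.65% of its stretches of 150 bases also occur in other genes, so that its counts are slightly uncertain. The other 9 members had 0 such stretches.

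Nqo1 was lower in inverse co-culture at 24 h, at 6.14, 5.79 and 2.80 FPKM against 7.23, 7.04 and 7.98 FPKM in controls, without overlap, and the difference of -0.61 (SE 0.26) did not pass (limma, adjusted p = 0.320). On leaving out 1 library this difference was between -0.80 and -0.29 and did not pass. At 72 h it was at 4.73, 2.59 and 3.86 FPKM against 3.87, 4.72 and 4.94 FPKM in controls, with overlap. In standard co-culture Nqo1 was below the control of its number in 3 of 3 pairs at both times, with differences of -0.27 (SE 1.00) and -0.89 (SE 0.45), neither past the threshold. Leaving out 1 library moved them between -1.19 and 0.54 at 24 h and between -1.17 and -0.40 at 72 h. Their SEs were 0.15 and 0.24 with a replicate block, and Nqo1 did not pass (limma, adjusted p = 0.458 and 0.356). Srxn1, Prdx1 and Hmox1 overlapped in all 4 comparisons with control. In the inverse model their log2 differences, at 24 h and then at 72 h, were 0.20 and 0.07 for Srxn1, 0.03 and -0.14 for Prdx1 and -0.02 and -0.31 for Hmox1. On median-ratio scaling they were 0.27 and 0.23 for Srxn1, 0.09 and 0.02 for Prdx1 and 0.04 and -0.15 for Hmox1. Hmox1 had its highest value, 307 FPKM, in a standard control at 72 h and its lowest, 119 FPKM, in a standard control at 24 h.

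The factors behind these targets were read from a list of 9 regulators of NRF2. Nfe2l2 itself was at 52.1, 46.6 and 55.3 FPKM in inverse controls and at 73.5, 67.7 and 76.8 FPKM in co-culture at 24 h. At 72 h it was at 57.3, 48.7 and 54.9 FPKM in controls and at 63.9, 70.9 and 88.0 FPKM in co-culture. All co-cultures lay above all controls at both times. The log2 differences of 0.50 (SE 0.11) and 0.46 (SE 0.14) missed the threshold (limma, adjusted p = 0.0508 and 0.0646), and passed it with voom on recovered fragments (0.0218 and 0.0474) and on median-ratio scaling (limma, 0.0467 and 0.0248). Nfe2l2 in the standard model was higher in co-culture in 3 of 3 pairs at both times, by 0.27 and 0.46 on the log2 scale, and did not pass (limma, adjusted p = 1 and 0.745). Of the 9 regulators, 1 rose at 72 h in inverse co-culture, Maff, a small MAF partner, at 74.0 ± 6.91 against 45.8 ± 6.76 FPKM (SD, n = 3 each; 0.69, SE 0.13; limma, adjusted p = 0.0174), and 0 passed at 24 h, with 12.8% and 2.47% of all genes called at these times. Keap1 stayed between 19.1 and 27.9 FPKM, Bach1 between 18.1 and 56.3 FPKM and Mtf1 between 4.11 and 7.99 FPKM in the 24 libraries.

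Other genes of the same pathways were read from fixed lists. At 72 h in inverse co-culture, where 12.8% of all genes were called, 1 of 10 other thioredoxin and peroxiredoxin genes rose and 0 fell. This was Prdx6, a peroxiredoxin that reduces phospholipid peroxides, at 148 ± 7.98 against 88.7 ± 5.00 FPKM (SD, n = 3 each; 0.74, SE 0.090; limma, adjusted p = 0.00615). Of 22 other glutathione genes 1 rose and 3 fell. Abcc1, an exporter of glutathione conjugates, rose by 0.56 on the log2 scale (limma, adjusted p = 0.0311), and the glutathione transferases Gstm1, Gstt1 and Mgst3 differed by -1.11 (0.00667), -1.26 (0.0115) and -0.70 (0.0224). Of 7 enzymes that make NADPH, 2 fell and 0 rose, namely Idh1 by 1.30 (limma, adjusted p = 0.0363) and Me1 by 0.67 (0.0296). The adipocyte sum was higher in the same controls, and its part in the values of Idh1 and Me1 was not tested. With the replicate block 0 of the NADPH-making enzymes passed, and of the glutathione genes 0 were higher and 2 lower.

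Of 17 other NRF2 target and detoxification genes, 5 fell and 1 rose at 72 h. Catalase (Cat) was at 49.5 ± 7.33 against 95.2 ± 8.36 FPKM (SD, n = 3 each; -0.95; limma, adjusted p = 0.00774). The retinaldehyde dehydrogenase Aldh1a1 differed by -1.12 (limma, adjusted p = 0.0069) and the aldehyde oxidase Aox1 by -1.08 (0.0399), while Ugdh, which makes UDP-glucuronate, rose by 0.43 (0.0321). The remaining calls were Cbr3 and Akr1b10, both lower. With the replicate block 2 of the 17 genes were called as lower and 0 as higher. Of 10 haem and iron genes 1 fell, the iron exporter Slc40a1, to 2.26 from 8.41 FPKM (-1.71; limma, adjusted p = 0.0124). On median-ratio scaling Mgst3, Idh1, Me1, Aox1, Cbr3 and Akr1b10 kept their sign and lost their calls (limma, adjusted p between 0.0513 and 0.092). At 24 h, where 2.47% of all genes were called, 1 gene of these 5 lists passed, the mitochondrial superoxide dismutase Sod2, at 38.2 ± 5.29 against 21.4 ± 0.918 FPKM (SD, n = 3 each; 0.81; limma, adjusted p = 0.0174). The call of Sod2 was lost with the replicate block.

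Of the other zinc genes, the importer Slc39a14 was called at both times in inverse co-culture, with log2 differences of 0.66 at 24 h and 0.68 at 72 h (limma, adjusted p = 0.0492 and 0.0428), 1 and 2 of 9 genes being called as higher, against 1.08% and 3.27% of all genes, and 0 as lower. The other was Slc39a6, a zinc importer as well, by 0.42 at 72 h (limma, adjusted p = 0.0447). The call of Slc39a14 at 24 h was lost on median-ratio scaling (limma, adjusted p = 0.0563) and with the replicate block. With that block 1 of the zinc genes was called at 72 h. Mtf1, the metal sensor, was not called in any comparison, and Mt3 did not pass the filter. Of 7 glucocorticoid-responsive genes, 0 passed at 24 h and 1 at 72 h, the kinase Sgk1 (0.82; limma, adjusted p = 0.0397). Standard co-culture gave 0 calls in these lists without a block by this test. The paper, which tested with DESeq2, lists Ugdh as differentially expressed in standard co-culture at 72 h and in inverse co-culture at both times. Blocked by replicate number, 3 of the 91 genes of these lists passed at 24 h, against 1.22% of all genes under the same block, namely Slc39a14 (0.73, SE 0.11; limma, adjusted p = 0.0433), the first enzyme of haem synthesis Alas1 (0.48; 0.0490) and Aldh1a1 (-1.13; 0.0144).

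The members were also compared between the times in mono-culture. In inverse controls Nqo1 was at 7.23, 7.04 and 7.98 FPKM at 24 h and at 3.87, 4.72 and 4.94 FPKM at 72 h. All later libraries were below all earlier ones, at 0.608 of the earlier mean, and Nqo1 fell by 0.66 on the log2 scale (SE 0.15; limma, adjusted p = 0.0182). It was the 1 member called, with 19.2% of 13092 genes called, 9.05% as lower. Its call was lost without control 24 h number 1, 2 or 3 (limma, adjusted p = 0.0533, 0.0563 and 0.0545) or control 72 h number 1 (0.0584), with differences from -0.73 to -0.57. Gclm, at 101, 111 and 87.6 FPKM and then 85.3, 72.9 and 74.2 FPKM, fell outside the threshold (-0.36, SE 0.11; limma, adjusted p = 0.0536), and passed with voom (0.0295) and on median-ratio scaling (limma, 0.0296). These 2 members did not overlap between the times, as did 39.7% of all genes. Mt1 rose by 0.46 with overlap and did not pass (SE 0.18; limma, adjusted p = 0.103, and 0.0743 with voom). It passed with the replicate block (limma, adjusted p = 0.0301). In the standard controls 0 members and 0 of 12963 genes passed (limma, voom 0, unadjusted 127 genes, 0 members), and 0 passed with a replicate block.

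Some of the other antioxidant genes passed in the same comparison, where 19.2% of all genes were called. Of 10 thioredoxin and peroxiredoxin genes 5 fell and 0 rose (Prdx4, Txn1, Prdx5, Prdx2 and Txn2), with log2 differences of -0.63 for Prdx4, -0.50 for Txn1, -0.46 for Prdx5 and -0.44 for both others (limma, adjusted p between 0.0161 and 0.0289). With the replicate block 3 of the 10 were called as lower. Of 22 glutathione genes 4 rose and 3 fell. The peroxidase Gpx1 went from 294 ± 5.56 to 170 ± 3.76 FPKM (SD, n = 3 each; -0.79; limma, adjusted p = 0.00175), Chac1, which degrades glutathione, differed by -1.08 (0.0351), and the transferases Mgst2 and Gsta3 rose by 1.32 (0.0108) and 0.89 (0.00738). Of 17 detoxification genes 4 rose, Aox1, Sod2, Sod3 and Cat, and 0 fell. The NADPH-making enzymes Idh1 and Me1 rose by 0.66 and 0.53 (limma, adjusted p = 0.0113 and 0.0183), as 2 of 7. Of 10 haem and iron genes 2 rose, Slc40a1 (1.35) and Alas1 (0.46), and the biliverdin reductases Blvra and Blvrb fell, by 0.58 and 0.65 (limma, adjusted p between 0.00777 and 0.0305). Of the 9 NRF2 regulators 1 rose, the small MAF gene Mafg (0.42; limma, adjusted p = 0.0142). Of 7 glucocorticoid-responsive genes, the receptor gene Nr3c1 (0.32; 0.0402) and Klf9 (0.55; 0.0173) rose and Fkbp5 fell by 0.87 (0.0161). The adipocyte sum was 153 to 235 at 24 h and 394 to 829 at 72 h in these controls, the macrophage sum was 71.8 to 82.2 and then 122 to 235, and the sum of the stellate cell markers was 14890 to 17469 and then 11302 to 14723. The epithelial and cancer cell sum was 1.27 to 2.03 and then 2.50 to 6.71, and the acinar sum 9.49 to 15.2 and then 15.6 to 18.1. None of these sums overlapped between the times, and their part in the changes was not tested. The inverse and the standard controls did not differ in any member at 24 h or 72 h by this test (limma, 0 of 12903 and 0 of 13106 genes, voom 0 and 0, unadjusted 225 and 810 genes, 0 members).

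In the standard model library number 1 stood apart for several members in control and co-culture alike. It stood apart in markers of other cells too, with an adipocyte sum of 23.2 to 68.9 FPKM over the 4 groups against 130 to 434 FPKM in numbers 2 and 3, and a sum of 4 mesothelial markers of 13.4 to 24.5 against 32.1 to 44.8 FPKM. The macrophage sum was also lowest in number 1 in each of the 4 groups, at 39.5 to 81.2 FPKM. The part of these markers in the values of number 1 was not tested. Nqo1 in library number 1 was at 21.9 FPKM in the control and 21.4 in co-culture at 24 h, and at 12.3 and 4.38 FPKM at 72 h. Numbers 2 and 3 were between 2.23 and 4.55 FPKM in all 4 groups. Number 1 was thus the highest in all 4 groups for Nqo1, and the same held for Gclc, Gclm and Txnrd1, 4 of 9 members, against 15.9% of 13694 genes. Over the 4 groups, the ratio of number 1 to the mean of numbers 2 and 3 was 3.51 for Nqo1, 2.02 for Txnrd1, 2.02 for Gclc and 1.53 for Gclm, and 9.18% of all genes had a ratio above 1.5. Srxn1 and Hmox1 had 1.35 and 1.22, and Prdx1 and Gsr 1.00 and 0.995. Mt1 went the other way, lowest in number 1 in all 4 groups with a ratio of 0.461, as were 18.6% of genes, and highest in number 2 in all 4, as were 6.48%.

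**Figure D5:**
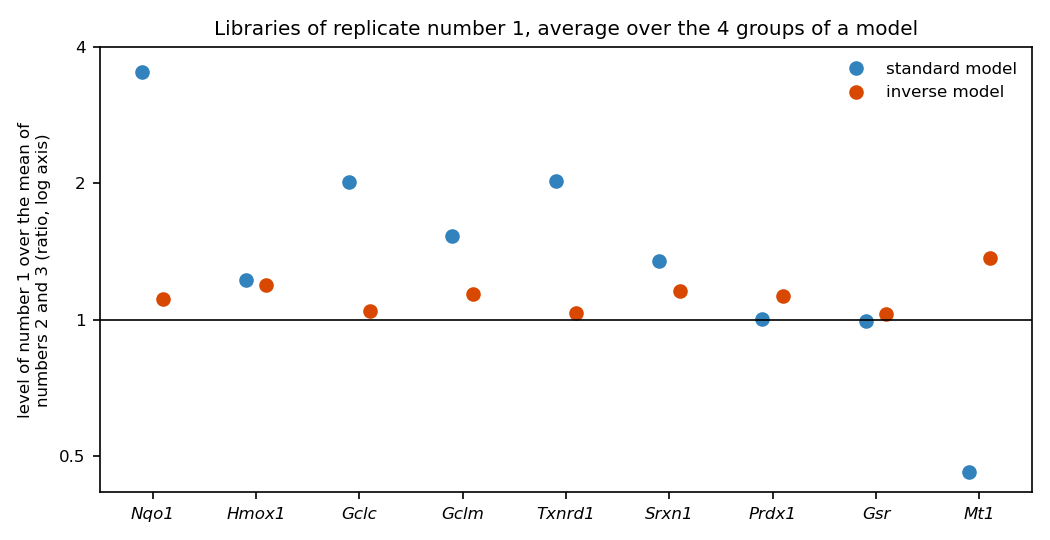
Ratio of library number 1 to the mean of numbers 2 and 3 on FPKM + 0.5, as geometric mean over 4 groups (log axis), for 9 members in the standard and the inverse model. In the standard model Nqo1 is at 3.51 and Mt1 at 0.461, and in the inverse model the members lie between 1.03 and 1.37.

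In the inverse model no member was highest in number 1 in all 4 groups (0 of 9 members, 0.721% of 13722 genes), and the ratios were between 1.03 and 1.37. In the standard model 15.9% of all genes were highest in number 1 in all 4 groups. Of the other glutathione genes 7 of 22 were, among them the cystine carrier Slc7a11 with a ratio of 2.61, Chac1 with 2.31 and Gpx1 with 1.71. Of the thioredoxin genes 2 of 10 were (Txn2 and Prdx4), of the detoxification genes 1 of 17 (Trim16, ratio 2.66), of the haem and iron genes 1 of 10 (the transferrin receptor Tfrc, 2.28), of the glucocorticoid-responsive genes 1 of 7 (Fkbp5, 1.91) and of the NRF2 regulators 0 of 9. The zinc genes had 0 of 9 and the NADPH-making enzymes 0 of 7. Lowest in number 1 in all 4 groups were 4 of 22 glutathione genes (Gpx3, ratio 0.323, Mgst2, Mgst1 and Glrx), 3 of 17 detoxification genes (Sod2, 0.353, Sod3, 0.423, and Nqo2, 0.846), 1 of 10 thioredoxin genes (Txnip, 0.513) and 1 of 10 haem and iron genes (Slc40a1, 0.262). So were 4 of 7 glucocorticoid-responsive genes (Nr3c1, 0.693, Sgk1, 0.585, Klf9, 0.414, and Hsd11b1, 0.506), 2 of 9 zinc genes (Slc30a7, 0.766, and Slc39a1, 0.792) and 1 of 7 NADPH-making enzymes (Idh1, 0.433), as were 18.6% of all genes and, among the members, Mt1. Of the 9 NRF2 regulators 2 were lowest in number 1 in all 4 groups, against the same 18.6% of all genes, namely Bach1 with a ratio of 0.543 and Nfe2l1 with 0.911. Maff and Cul3 were highest in number 1 in 3 of the 4 groups, with ratios of 1.54 and 1.11, and Keap1 had a ratio of 0.945. Nfe2l2 in number 1 was at 50.4, 65.4, 42.7 and 68.3 FPKM over the 4 groups and thus not highest in any. These are the libraries of 3 numbers, and what a number stands for was not given in the labels. The macrophage sum was 510, 380, 1259 and 748 FPKM in number 2 of the standard groups and between 39.5 and 173 FPKM in numbers 1 and 3, and its part in the values of Mt1 was not tested.

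The members varied together to different degrees over the 24 libraries, which share their models and numbers. Gclc and Txnrd1 had a Pearson correlation of 0.851, Nqo1 and Gclm of 0.814 and Gclc and Srxn1 of 0.790, while Nqo1 and Mt1 had -0.665. These pairs had 0.552, 0.874, 0.913 and -0.853 over the 8 groups. Other pairs turned: Nqo1 and Gclc had 0.741 over libraries and -0.172 over groups, and Nqo1 and Txnrd1 0.615 and -0.449. Over the 8 group means of log2(FPKM + 0.5), among 14452 genes, the patterns most like that of Nqo1 were those of Dpysl3 (0.977), Sgf29 (0.974), St3gal5 (0.972), R3hcc1 (0.971) and Fam149a (0.970). For Hmox1 they were Cadm1 (0.957), Pttg1ip (0.956), Rgs1 (0.951), Ccnd1 (0.947) and Arhgap12 (0.925). For Mt1, which took the place of Mt2 after its values were seen, they were Serpina3i (0.961), Il6 (0.946), Arap3 (0.946), Rab20 (0.935) and H2-M3 (0.931). With 8 points and 14452 genes to choose from, values of this size describe these groups only.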

How the data were processed

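The authors sequenced polyA RNA of PSC as paired reads, aligned them with HISAT2 (2.0.5) to GRCm38, counted fragments per gene with featureCounts (1.5.0-p3) and deposited FPKM for 24 libraries in 8 groups, taken here from the labels. For their own comparisons they named DESeq2 (1.20.0), which was not used here. FPKM are not counts, so log2(FPKM + 0.5) was tested with limma (3.58.1, R 4.3.3) and an intensity trend, in the 6 libraries of each comparison or the libraries of both models or times for differences, for genes with FPKM above 1 in at least 3 libraries. Adjusted p is Benjamini-Hochberg over all genes tested, in 12 comparisons per member. Python (3.11.15) was used for descriptions. The code was tested on simulated data.

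Members and lists were chosen with earlier results of these data known. All members are named. Of each related list the genes called are named, at most the 4 with the largest change per comparison. Cbr3 and Akr1b10 are added, and all 5 thioredoxin and peroxiredoxin genes called in inverse controls over time are named. For 3 members the 5 genes with the most similar group means are named. Genes of the lists named for a library number were chosen after their values were seen.

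Low FPKM values were whole multiples of 1 fragment in 93.8% to 94.8% of cases (tolerance 0.02 fragments) with the mean transcript length of GENCODE M21, which gave the fragments and totals and was inferred from the values, for 53706 of 53801 genes. No counting interval was given, and the spread between libraries was not compared with counting error.

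In the standard model the numbers 1, 2 and 3 pair the libraries: deviations from group means of the same number correlated by 0.82, 0.76 and 0.55 at 24 h and 0.60, 0.48 and 0.48 at 72 h. In the inverse model they did not. Alternatives were other pseudocounts, filters and scaling, voom on recovered fragments, a replicate block, 1 model over 24 libraries, and leaving out each library.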

Additional observations from a re-analysis of the deposited data

How the results depend on the processing

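The number of members called stayed at 0 in all 9 comparisons that had 0, under every alternative run. In inverse co-culture at 24 h (1 call) it was 0 without a filter and with all 24 libraries in 1 model, and between 0 and 1 on leaving out 1 library. In inverse co-culture at 72 h (2 calls) it was 1 without a filter, on median-ratio scaling, with the replicate block and with all 24 libraries in 1 model, and between 0 and 2 on leaving out 1 library. In inverse controls over time (1 call) it was 0 without a filter and with all 24 libraries in 1 model, 2 with a mean FPKM above 5, on median-ratio scaling, with voom and with the replicate block, and between 0 and 1 on leaving out 1 library. The calls lost without a filter were those of Mt1, Gsr and Nqo1 (limma, adjusted p = 0.103, 0.0876 and 0.0554). There, many more genes enter both the adjustment and the intensity trend. Those lost with all 24 libraries in 1 model were Mt1, Txnrd1 and Nqo1 (limma, adjusted p = 0.642, 0.430 and 0.586), where the libraries of all groups enter the estimate of spread. The causes of these and of the remaining changes were not tested. Of 2015 member values under alternatives, 1987 kept their side of the threshold, 22 lost a call and 6 gained one, and none of the called values turned. In the inverse model the numbers do not pair the libraries (correlations -0.17 to 0.10 in co-culture comparisons). There the replicate block gave adjusted p (limma) of 0.0310 for Mt1 at 24 h and, at 72 h, 0.0462 for Txnrd1 and 0.0911 for Gsr. The block changed no other call of a member besides adding Mt1 in inverse controls over time (0.0301). All genes called ranged from 12 to 520 in inverse co-culture at 24 h (317 as reported), from 368 to 2071 at 72 h (1678), from 236 to 3067 in inverse controls over time (2516), and from 0 to 157 and 0 to 45 in standard co-culture at the earlier and the later time (0 and 0). Depth limits Nqo1, with 69 to 773 fragments, more than the other members tested.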
